A study of Mus musculus with 2 samples.

Results

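The MHC class II genes *H2-Aa*, *H2-Ab1* and *H2-Eb1*, the invariant chain gene *Cd74*, and the paired genes *H2-DMa* and *H2-DMb1* were followed cell by cell in Sc-RNA-Seq of bone marrow cells (BMCs). These 6 genes were taken by name, and all 6 were among the 6001 genes listed in both count matrices. The WT and the Cko library each came from 1 C57BL6/J mouse at postnatal day 21, from crushed and digested fore- and hindlimb marrow after red cell lysis. The Cko lacks S1P (site-1 protease, encoded by *Mbtps1*) in the osterix lineage, through S1P f/f alleles and the Osx1-GFP::Cre driver. The labels call the control WT only, and the study describes its WT mice as S1P f/f. The driver is meant for the bone-forming lineage, but the study proposes that it is likely active in hematopoietic cells too. It reports deletion of *Mbtps1* exon 2 in sorted neutrophils from all 6 Cko mice it examined. With 1 library per genotype a difference between them could not be tested, and a difference between genotypes cannot be told apart from one between 2 mice or 2 libraries. All intervals below are 95% intervals and cover counting error only.

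MHC class II molecules carry peptides from the endosomal pathway to the cell surface, where CD4 T cells read them. H2-Aa and H2-Ab1 are the α and β chains of I-A, and H2-Eb1 is the β chain of I-E. The I-E α chain gene is not functional in the C57BL/6 strain, so H2-Eb1 has no partner at the surface there. Cd74 binds new class II dimers, blocks their groove and guides them to endosomes, and the H2-DMa and H2-DMb1 dimer then helps to exchange the last Cd74 fragment for peptide. Mature B cells, dendritic cells and activated macrophages are the main bearers of class II, and most of its genes answer to the coactivator Ciita through a promoter module of X and Y boxes.

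On GRCm38, 5 of the genes lie together on chromosome 17 and *Cd74* lies on another chromosome. All 6 are annotated as protein-coding, and each value below is a count over the whole gene. *H2-DMa* (chr17:34119541-34139101), *H2-DMb1* (chr17:34153072-34160230), *H2-Ab1* (chr17:34257689-34269419) and *H2-Eb1* (chr17:34305867-34316674) are on the plus strand, and *H2-Aa* (chr17:34282744-34287823) is on the minus strand. *H2-DMb2*, a close paralog of *H2-DMb1*, lies between *H2-DMa* and *H2-DMb1*. Promoters of 4 of the 5 genes on chromosome 17 were matched in RefSeq (GRCm38.p6), each running from 250 bases before to 50 bases after the start. *H2-Ab1* had no entry, and *Cd74* was left out of this step. Those of *H2-Aa* and *H2-Eb1* are shown because they hold the X and Y letters in order, 28 and 27 bases apart. Capitals mark GCAAC, the core of the X box, and ATTGG, the Y box read on the strand of the gene. The first window is chr17:34287857-34287914 on the minus strand, and the second is chr17:34305766-34305822 on the plus strand.
H2-Aa: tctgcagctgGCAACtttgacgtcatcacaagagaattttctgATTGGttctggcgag
H2-Eb1: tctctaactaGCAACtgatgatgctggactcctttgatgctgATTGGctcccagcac
Only the 250 bases before the start were searched. GCAAC 10 to 40 bases before ATTGG, on either strand, was found there in 1.21% of 32851 promoters. GCAAC alone was found in 29.9% and ATTGG alone, read as CCAAT on the other strand, in 33.8%. The RefSeq promoters of *H2-DMa* and *H2-DMb1* did not hold these exact letters in this spacing. The *H2-DMb1* promoter has GTAAC in place of GCAAC before its ATTGG, and a search for exact letters cannot tell whether a box is absent.

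The WT matrix held 6287 barcodes and 56382459 UMIs and the Cko matrix 3670 barcodes and 34447224 UMIs, and 28 barcode sequences occurred in both. After the filter on genes, 6271 WT cells with a median of 6977 UMIs and 3662 Cko cells with a median of 7440 were kept. *Mbtps1* was at 31.9 CPM (UMIs scaled to a total of 1000000) in WT and 31.2 in Cko, but counts from the 3′ end of a transcript do not test a deleted exon. The 4 hemoglobin genes took 16.7% of WT and 6.28% of Cko UMIs, and neutrophil-like cells were 10.4% of WT and 32.9% of Cko cells. Cells were clustered jointly without the class II genes, and clusters are called "-like" after their markers. Since these are UMI counts, their size does not depend on transcript length, and levels of different genes are compared on the CPM scale without a length correction.

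Over all cells, each of the 6 genes was higher in the Cko library. *Cd74* was at 72.6 CPM in WT and 261 in Cko, and *H2-Aa* at 26.9 and 102. *H2-Ab1* was at 41.8 and 92.1 CPM, *H2-Eb1* at 13.6 and 50.8, *H2-DMa* at 34.1 and 77.7, and *H2-DMb1* at 9.43 and 27.2. The 6 genes together gave 198 CPM in WT and 611 in Cko, a log2 ratio of 1.62 (1.59 to 1.66). All 6 were past 1.5-fold higher, where 18.4% of 5871 genes with at least 100 UMIs were, and their median log2 ratio was 1.69 against -0.03 for all those genes. In such a sum, more cells of a type and more RNA per cell cannot be told apart, so the sum was next divided by cell type.

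A small number of cells held a large share of these UMIs, most of them in Cko but not in WT. Cells with at least 100 class II UMIs per 10000 of their own UMIs, a limit set with the values in view, were 29 in WT (0.46%) and 84 in Cko (2.29%). They carried 33.1% of the class II UMIs of the WT library and 61.5% of those of the Cko library. In Cko, 31 of the 84 were monocyte-like, 28 immature and mature B-like and 16 plasmacytoid dendritic-like. In WT, the same classes held 7, 8 and 9 of the 29. Monocyte-like cells were 5.02% of WT and 14.4% of Cko cells and held 19.3% and 38.5% of the class II UMIs. Immature and mature B-like cells were 0.59% and 1.15% of cells and held 8.85% and 14.01%. The plasmacytoid dendritic-like cluster was 0.86% and 1.72% of cells and held 16.99% and 17.99%. Most of the class II UMIs of that cluster, 1571 of 1898 in WT and 3152 of 3782 in Cko, lay in cells without a UMI of its marker *Siglech*. These are described below. With the cluster makeup of Cko and the WT level within each cluster, the sum would have been 488 CPM, and with the makeup of WT and the Cko levels it would have been 349.

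**Figure D1:**
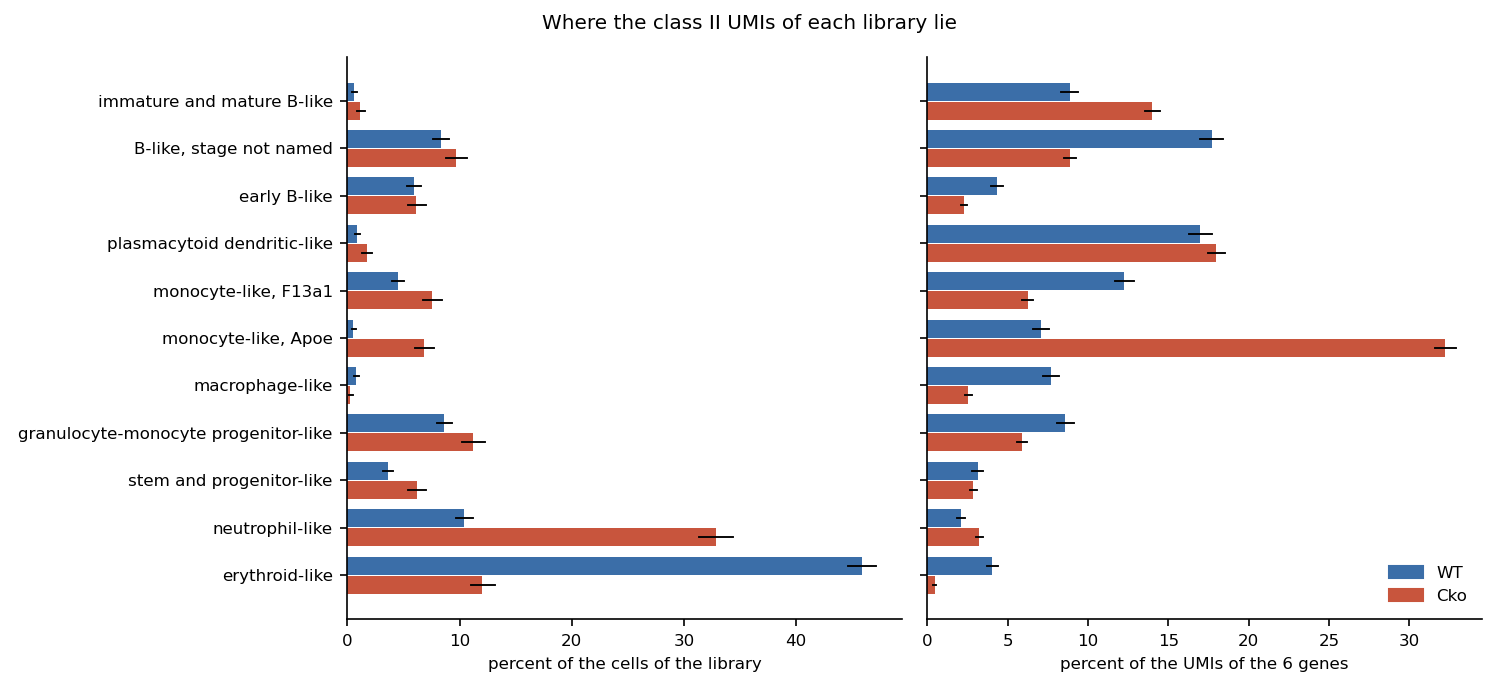
Share of the cells (left, percent) and of the UMIs of the 6 genes (right, percent) that each cell class took in WT (blue) and Cko (red), with exact binomial 95% intervals as black lines. The monocyte-like Apoe cluster went from 7.06% of the class II UMIs in WT to 32.2% in Cko, with 0.54% and 6.83% of the cells.

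The lowest levels of the 6 genes marked the background. In erythroid-like cells, which should not make class II, they summed to 19.5 CPM in WT and 23.3 in Cko, with *Cd74* at 7.90 and 7.94 CPM. A *Cd74* UMI was found in 3.69% of WT and 6.80% of Cko erythroid-like cells, at median depths of 6404 and 8139 UMIs, and in 1.39% and 2.04% after thinning each cell to 3000 UMIs. Shares of cells below are read against these. The erythroid-like class was not even in its make-up. In its cluster led by *Stard10*, *H2-Ab1* made up 52.9% and *H2-Aa* 4.81% of 104 class II UMIs, both libraries pooled. Whether these UMIs are background was not tested.

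The level of the 6 genes differed between clusters of B-lineage cells. The clusters are ordered here by their markers: the Dntt and Igll1 clusters are early B-like, the Myl4 and Spib clusters are B-like with no stage named, and the Igkc cluster is immature and mature B-like. The class II sum was 188 CPM in WT and 170 in Cko in the Dntt cluster, 124 and 164 in the Igll1 cluster, 485 and 556 in the Myl4 cluster and 970 and 971 in the Spib cluster. In the immature and mature B-like cluster it was 5558 and 15023. The libraries were furthest apart in this last cluster. For the Dntt and Spib clusters the intervals of the log2 ratio, -0.46 to 0.17 and -0.19 to 0.19, both held 0. Further B-like clusters of no named stage, led by *Ly6d* and *Retnlg*, are left out of this order because erythroid or neutrophil genes stood beside the B genes in them.

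The genes did not come up together along this order. In the Dntt cluster, named for the enzyme that adds bases at immunoglobulin joints, *H2-Ab1* was at 123 CPM in WT and 122 in Cko, while its partner *H2-Aa* was at 1.27 and 3.60, from 1 and 4 UMIs. *H2-Ab1* thus made up 97.9% of the UMIs of the I-A pair over both libraries. This share was 85.8% in the Igll1 cluster, 65.9% in the Myl4 cluster, 58.5% in the Spib cluster and 44.2% in the immature and mature B-like cluster. *Cd74* ran the other way, with 5.93% of the class II UMIs in the Dntt cluster, 21.99%, 25.6% and 30.9% in the following clusters and 66.2% in the last. Both libraries showed *H2-Ab1* ahead of *H2-Aa* in all 4 early and unnamed clusters except the Spib cluster of Cko, where the levels were 265 and 291 CPM.

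The early *H2-Ab1* was seen in many cells. A *H2-Ab1* UMI was found in 48.8% (43.6 to 54.0) of 371 WT and 63.6% (56.9 to 69.8) of 225 Cko early B-like cells, at median depths of 8898 and 12093 UMIs. After thinning to 3000 UMIs the shares were 23.2% and 27.6%, against 1.11% and 1.36% of erythroid-like cells. *H2-Aa* was found in 2.43% and 2.67% of the thinned early B-like cells and *Cd74* in 4.31% and 6.22%. Between libraries the early B-like sum was 139 CPM in WT and 167 in Cko, a log2 ratio of 0.26 (0.08 to 0.45), and 0 of the 3 members with at least 100 UMIs were past 1.5-fold higher or lower, where 2.29% and 3.94% of 4420 genes were. In the Myl4 cluster *Cd74* (102 and 157 CPM) and *H2-Aa* (81.5 and 129 CPM) were past 1.5-fold higher in Cko, 2 of 4 members against 3.54% of genes, and *H2-Ab1* was at 230 and 203 CPM. In the Spib cluster 0 of 3 members were past 1.5-fold higher or lower, where 4.11% and 5.87% of 1532 genes were.

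**Figure D2:**
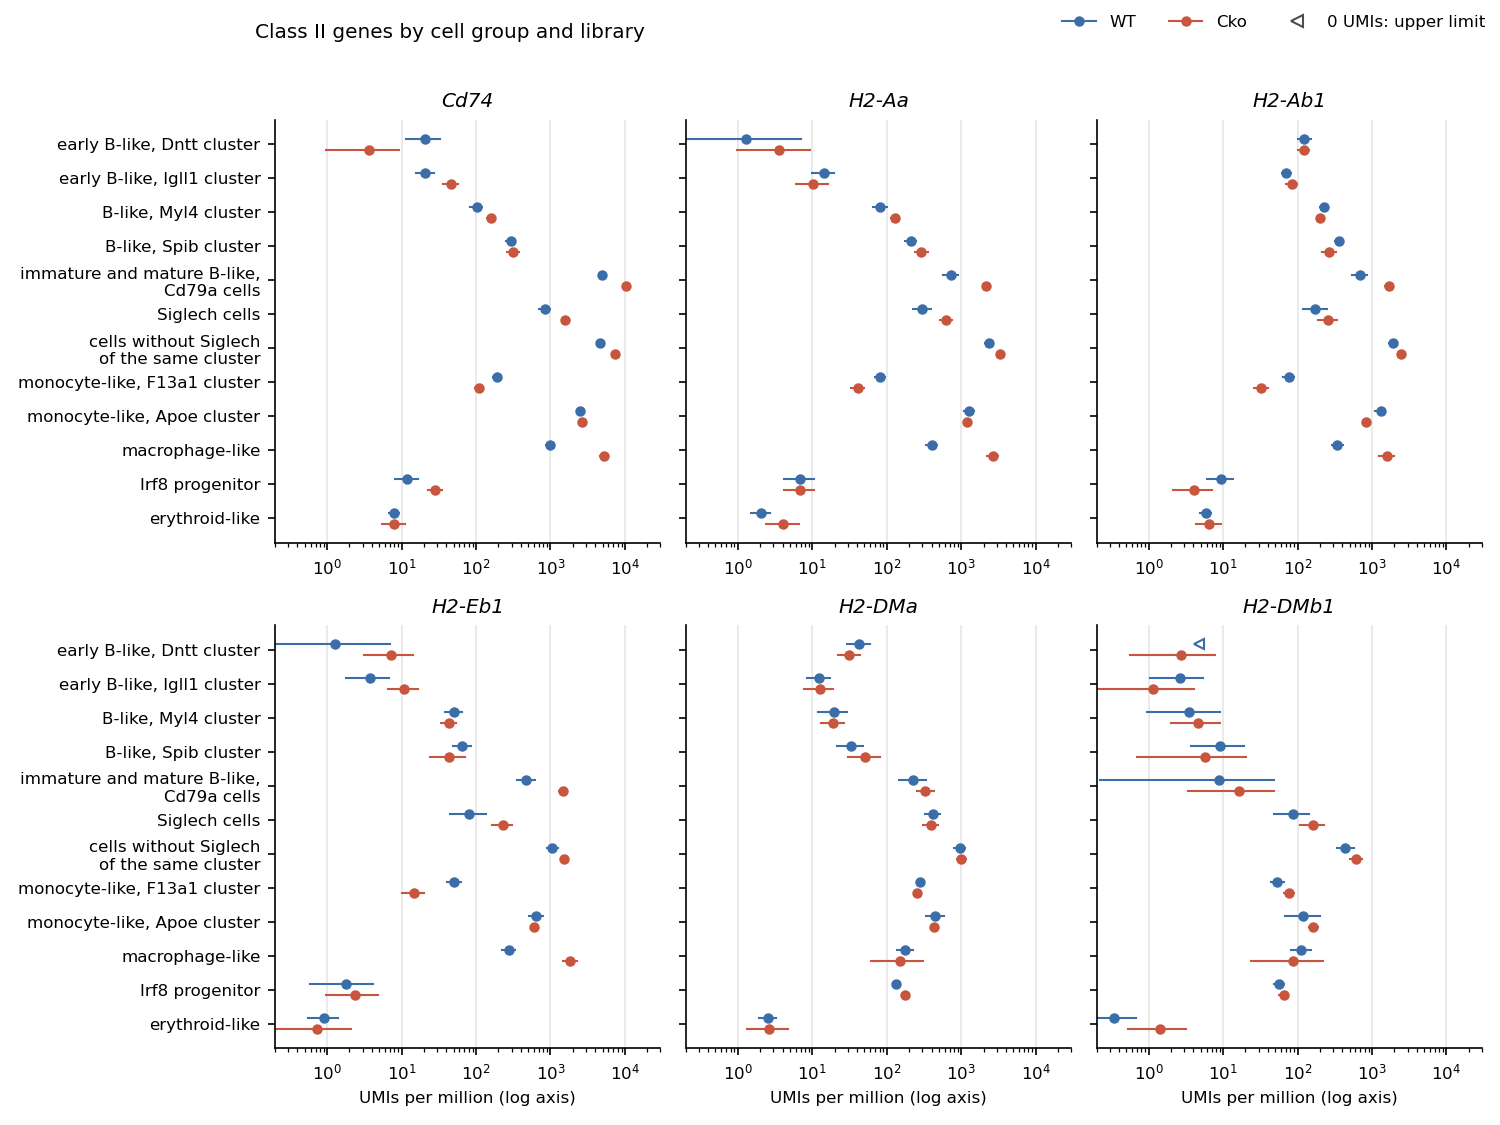
Level of each of the 6 genes in CPM (log axis) in 12 cell groups, WT in blue and Cko in red, with exact Poisson 95% intervals and open triangles for the upper limit where 0 UMIs were counted. *H2-Ab1* was at 123 CPM in the WT Dntt cluster, where *H2-Aa* was at 1.27, and *H2-DMa* was at 135 CPM in the WT Irf8 progenitors, where *Cd74* was at 11.9.

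Immature and mature B-like cells, led by *Igkc*, *Iglc2*, *Ighm* and *Ms4a1*, were 37 in WT and 42 in Cko, and their class II level was 2.70-fold higher in Cko (log2 1.43, 1.33 to 1.54). *Cd74* was at 3990 CPM in WT and 9672 in Cko, *H2-Aa* at 539 and 2056, *H2-Ab1* at 495 and 1566, and *H2-Eb1* at 377 and 1403. Of the 6 members, 4 had at least 100 UMIs over both libraries, and these were past 1.5-fold higher, where 22.1% of 435 genes were. The limit sums both libraries, so a gene can reach it through Cko alone. *H2-DMa* and *H2-DMb1* did not reach it. The WT cells of this cluster were not all of one kind. The *Ighm* and *Igkc* levels were 24215 and 41815 CPM in WT and 816 and 3586 in Cko. Other B genes were higher in Cko, with *Iglc2* at 2164 CPM in WT and 3734 in Cko, *Ms4a1* at 804 and 1474, *Cd79a* at 1765 and 2811 and *Ltb* at 326 and 826. Their part in the class II difference was not tested. In 4 WT cells and no Cko cell, 10% or more of all UMIs were *Ighm*, *Igkc* or *Iglc2*, and in these cells *Cd74* was at 4134 CPM and *H2-Aa* at 0. A further 9 WT and 3 Cko cells had no UMI of *Cd79a*, the signalling chain of the B-cell receptor, and 7 of these WT cells had no class II UMI. Another of these WT cells had 57, or 181 per 10000 of its UMIs, the highest value among the WT cells of the cluster.

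Without these cells 24 WT and 39 Cko cells were left, and the levels were closer but still apart. *Cd74* was then at 4912 CPM in WT and 10289 in Cko (log2 1.07, 0.93 to 1.21), *H2-Aa* at 724 and 2182 (1.59, 1.25 to 1.95), *H2-Ab1* at 689 and 1666 (1.27, 0.91 to 1.65) and *H2-Eb1* at 471 and 1487 (1.66, 1.23 to 2.11). The sum of the 6 genes was 7032 and 15971 CPM, with a log2 ratio of 1.18 (1.07 to 1.30). Again the 4 of 6 members that reached the limit of UMIs were past 1.5-fold higher, where 12.4% of 363 genes were. *H2-DMa* and *H2-DMb1* fell short of the limit, so this count leaves them out. The median log2 ratio of the 363 genes was 0.03. Cell by cell, WT ran from 9.61 to 164 class II UMIs per 10000 with a median of 70.0, and Cko from 32.4 to 398 with a median of 167. The ranges overlapped, but 28 of 39 Cko cells (71.8%, 55.1 to 85.0) and 7 of 24 WT cells (29.2%, 12.6 to 51.1) were at 100 or more. Erythroid markers of the whole cluster summed to 35712 CPM in WT and 1816 in Cko. For the whole cluster, the log2 ratio of the sum was 1.39 without hemoglobin in the total and 1.44 with the erythroid-like level subtracted, against 1.43. The part of the erythroid markers in the difference was not tested otherwise.

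The H2-DM pair was unbalanced in these B cells. *H2-DMa* was at 146 CPM in WT and 311 in Cko, a log2 ratio of 1.09 (0.41 to 1.81), or 227 and 331 without the cells named above (log2 0.55, -0.14 to 1.27). *H2-DMb1*, its β partner, was nearly missing, with 2 WT and 3 Cko UMIs, and made up 0.13% of the class II UMIs. The paralog *H2-DMb2* had 32 and 81 UMIs in the same cells, at 180 and 413 CPM, and *H2-Ob*, a chain of the H2-O dimer that restrains H2-DM, was at 84.3 and 235 CPM. In plasmacytoid dendritic-like cells the order was opposite, with *H2-DMb1* at 244 and 387 CPM and *H2-DMb2* at 25.7 and 43.9. Reads of such close copies can be split unevenly by the counting, so the share of each is uncertain.

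**Figure D3:**
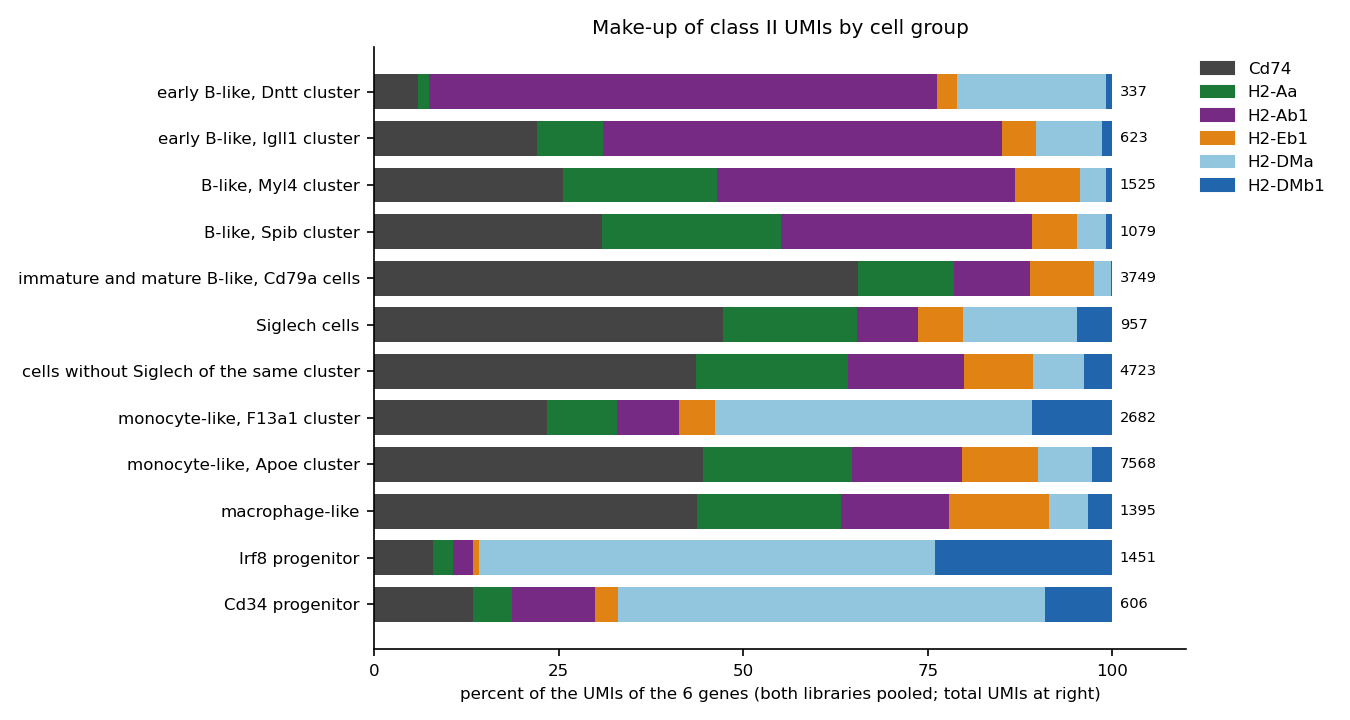
Make-up of the UMIs of the 6 genes (percent) in 12 cell groups, both libraries pooled, with the number of UMIs at the right of each bar. *H2-Ab1* made up 68.8% of the bar in the Dntt cluster and 10.3% in the immature and mature B-like cells with *Cd79a*, and the *H2-DMa* and *H2-DMb1* pair took 85.9% in the Irf8 progenitors.

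The cluster led by *Siglech*, *Cd7* and *Cd209d* was called plasmacytoid dendritic-like and had 54 WT and 63 Cko cells. No cluster could be named conventional dendritic-like. *Cd74* was at 2530 CPM in WT and 4449 in Cko (log2 0.81, 0.69 to 0.94), *H2-Aa* at 1209 and 1982 (0.71, 0.53 to 0.90), *H2-Ab1* at 945 and 1365 (0.53, 0.32 to 0.74) and *H2-Eb1* at 518 and 880 (0.77, 0.49 to 1.05). *H2-DMa* was at 656 and 697 CPM (0.09, -0.18 to 0.36). In all, 4 of 6 members were past 1.5-fold higher, where 5.42% of 923 genes were. Neutrophil markers, 14 of 15 of them listed, of this cluster summed to 16534 CPM in WT and 2896 in Cko. Erythroid markers, all 14 of them listed, summed to 8847 and 1109.8 CPM, with 0 of 14 higher in Cko. Without hemoglobin in the total the log2 ratio of the 6 genes summed was 0.67, against 0.68 with it. The part of either list was not tested otherwise.

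The class II level within this cluster went with the absence of *Siglech*, a lectin of plasmacytoid cells. The 35 WT and 36 Cko cells with a *Siglech* UMI had medians of 6.61 and 11.3 class II UMIs per 10000. The 19 and 27 cells without one had medians of 31.4 and 73.7 and held 82.8% and 83.3% of the class II UMIs of the cluster. *Cd74* was at 6197 CPM in the cells without and 1234 CPM in the cells with *Siglech*, both libraries pooled. The markers of conventional dendritic cells stood on the same side: *Cst3* was at 6146 CPM against 1540, *Naaa* at 169 against 13.7 and *Ckb* at 141 against 0, and the whole dendritic list summed to 7055 against 1927. *Flt3*, shared by both kinds, was at 81.3 and 87.4 CPM. Neutrophil markers summed to 2049.7 CPM in the cells without and 15245 in the cells with *Siglech*. The difference between libraries was seen on both sides of this split, which was chosen after the data were seen. The class II sum was 1897 CPM in WT and 3250 in Cko in cells with *Siglech* (log2 0.78, 0.58 to 0.97) and 11332 and 16280 in cells without (0.52, 0.43 to 0.61). The members past 1.5-fold higher were 2 of 3 with enough UMIs in the first, where 7.07% of genes were, and 1 of 6 in the second, where 6.9% were.

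**Figure D4:**
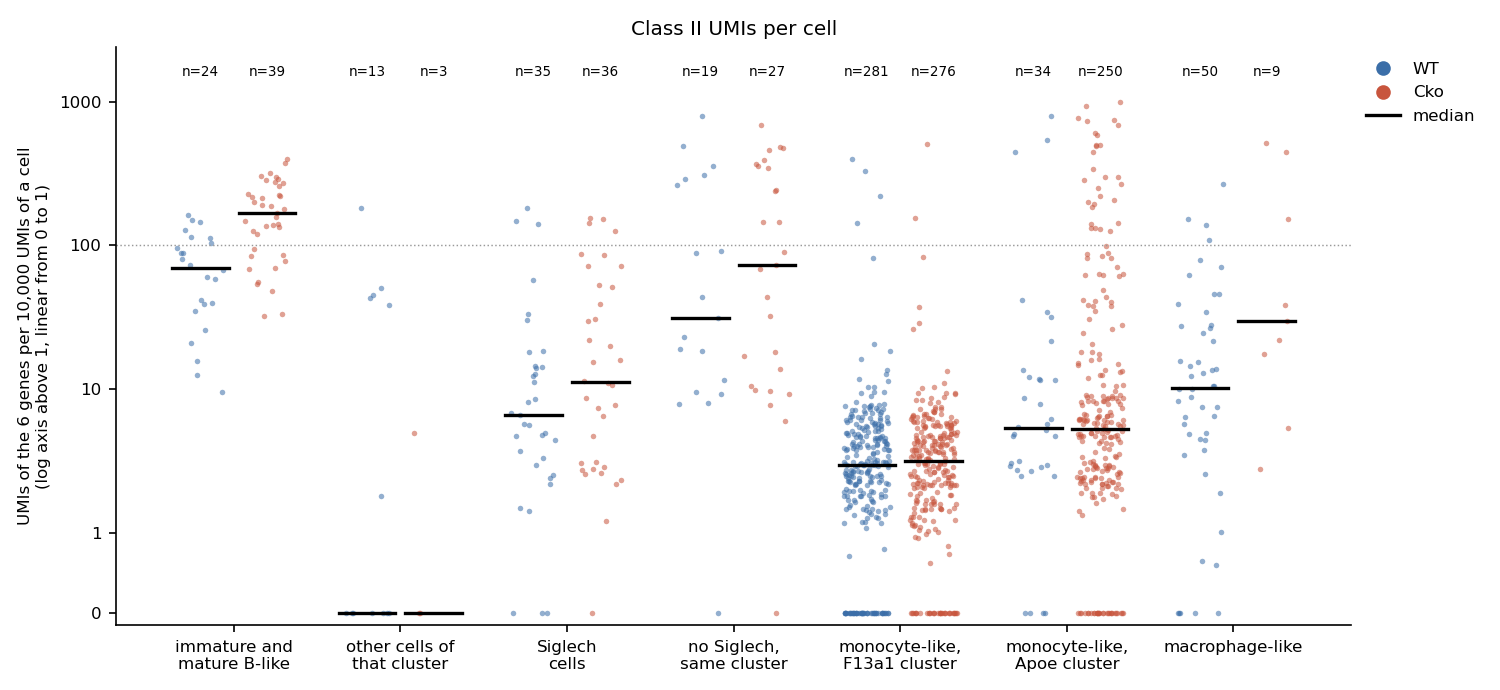
Class II UMIs per 10000 UMIs of each cell (log axis above 1, linear below) in 7 cell groups, WT in blue and Cko in red, with the median as a black bar, the number of cells above and 100 per 10000 as a dotted line. Points are single cells and not replicates. The medians were 70.0 and 167 in the immature and mature B-like cells left after the removal above and 5.36 and 5.32 in the monocyte-like Apoe cluster, where a tail of cells reached beyond 100.

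Monocyte-like cells formed 2 clusters that carried class II in different ways. One, led by *Fn1*, *S100a4* and *Ms4a6c* and here called the F13a1 cluster, had 281 WT and 276 Cko cells. The other, led by *Sirpb1c*, *Wfdc17* and *Apoe*, had 34 WT and 250 Cko cells. The class II sum was 729 CPM in WT and 531 in Cko in the F13a1 cluster and 6301 and 5853 in the Apoe cluster. Taken as 1 class, monocyte-like cells had 1077 CPM in WT and 2230 in Cko, and 5 of 6 members were past 1.5-fold higher and 0 lower, where 5.67% and 8.78% of 4214 genes were. This pooled ratio (log2 1.05, 0.98 to 1.12) did not hold within either cluster, where it was -0.46 (-0.57 to -0.35) and -0.11 (-0.21 to 0.00). The Apoe cluster was 34 of the 315 WT and 250 of the 526 Cko monocyte-like cells. These levels also rest on a clustering without the class II genes. With them in the clustering, 305 WT and 504 Cko monocyte-like cells were at 413 and 761.8 CPM, and 59 and 87 plasmacytoid dendritic-like cells were at 9970.3 and 18876.

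In the F13a1 cluster the H2-DM pair stood nearly alone. *H2-DMa* was at 277 CPM in WT and 256 in Cko and was found in 75.8% and 80.1% of the cells, or 53.0% and 53.3% after thinning, against 0.59% and 1.36% of thinned erythroid-like cells. A *Cd74* UMI was found in 5.69% and 7.97% of the thinned cells. The median cell had 2.96 class II UMIs per 10000 in WT and 3.19 in Cko. *Cd74* (189 and 110 CPM), *H2-Aa* (80.9 and 40.9), *H2-Ab1* (76.6 and 32.8) and *H2-Eb1* (51.1 and 14.6) were past 1.5-fold lower in Cko, 4 of 6 members where 5.08% of 3819 genes were, and 0 were higher, where 3.33% were. These values came from few cells. The 5 WT and 4 Cko cells at 30 or more per 10000 held 52.6% and 31.0% of the class II UMIs, and in the other 548 cells *Cd74* was at 26.3 CPM, *H2-Aa* at 4.66 and *H2-DMa* at 261. In those 9 cells *Cd79a*, a B-cell gene, was at 381 CPM against 25.4 in the others, and neutrophil markers summed to 46824 CPM against 14684. In the 256 WT and 252 Cko cells without a *Cd79a* UMI, *Cd74* was at 139.9 and 97.8 CPM, a log2 ratio of -0.52 (-0.79 to -0.24) that no longer passed 1.5-fold, and *H2-Eb1* was at 42.02 and 14.7 (-1.51, -2.16 to -0.90). The part of the neutrophil markers was not tested.

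In the Apoe cluster class II was held by a tail of cells. The median cell had 5.36 class II UMIs per 10000 in WT and 5.32 in Cko, while 3 of 34 WT (8.82%, 1.86 to 23.7) and 29 of 250 Cko cells (11.6%, 7.91 to 16.2) were at 100 or more and reached 790 and 995. These cells held 87.7% and 84.0% of the class II UMIs of the cluster. In them *Cd74* was at 18877 CPM against 471 in the other 252 cells, *H2-Aa* at 9682 against 72.4, *H2-Ab1* at 7023 against 63.5 and *H2-Eb1* at 4971 against 31.8, while *H2-DMa* was at 1306 against 316. Away from the class II genes that chose them, these 32 cells had *Cd209a*, a lectin on the dendritic list, at 213 CPM against 5.29, *Mgl2*, another lectin, at 86.6 against 0 and *C1qb* at 113 against 5.29. The monocyte gene *Fn1* was at 247 CPM against 1218. Of these, *Mgl2* was chosen after its values were seen. *Siglech* was at 0 in both, 4 of the 32 cells had a *Cd79a* UMI, and none was called a doublet. Near the limit, 0 WT and 6 Cko cells lay between 80 and 125 per 10000. Between libraries 0 members were past 1.5-fold higher and *H2-Ab1*, at 1302 CPM in WT and 831 in Cko, was past 1.5-fold lower, where 12.6% and 9.45% of 1503 genes were.

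The macrophage-like cluster, with *C1qa*, *C1qc* and *Vcam1* as its leading genes, had 50 WT and 9 Cko cells. *Cd74* was at 979 CPM in WT and 5215 in Cko, *H2-Aa* at 399 and 2651, *H2-Ab1* at 343 and 1595 and *H2-Eb1* at 277 and 1853. The H2-DM pair was not seen higher in Cko, with *H2-DMa* at 175 and 151 CPM and *H2-DMb1* at 112 and 86.2. Both genes fell short of the limit of UMIs. In Cko they made up 1.31% and 0.75% of 536 class II UMIs, so their Cko levels rest on few UMIs. The log2 ratio of the sum was 2.34 (2.18 to 2.50), and 4 of the 4 members with enough UMIs were past 1.5-fold higher where 19.8% of 469 genes were, and 0 lower where 18.3% were. The 9 Cko cells had 2.79, 5.42, 17.6, 22.1, 30.1, 38.8, 152, 449 and 519 class II UMIs per 10000, and the 50 WT cells had a median of 10.3 and a maximum of 267. Thus 7 of the 9 Cko cells lay within the range of the WT cells and the 2 highest lay above it. Without the top cell of each library the log2 ratio was 2.01, and between median cells it was 1.55. Hemoglobin took 21.9% of the UMIs of the WT and 9.32% of those of the Cko macrophage-like cells, and without it in the total the log2 ratio was 2.12. Other marker lists differed between the libraries too. Neutrophil markers summed to 22830 CPM in WT and 6594 in Cko, monocyte markers to 1433 and 3599, and granulocyte-monocyte progenitor markers to 665 and 3232. Stromal and endothelial markers summed to 79.8 and 1444 CPM and megakaryocyte markers to 229 and 1013. The part of these in the class II difference was not tested.

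The class II rich macrophage-like cells, 11 in WT and 5 in Cko at 30 or more per 10000, also differed from the other 43 in genes outside the 6. *C1qa*, of the first complement component, was at 4421 CPM against 1643 and *Apoe* at 5475 against 1056. *Cx3cr1*, the fractalkine receptor on the monocyte list, was at 193 CPM against 6.18, and *Ms4a6c*, on the same list, at 527 against 43.2. Erythroid markers summed to 180044 CPM in the first and 220468 in the second.

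**Figure D5:**
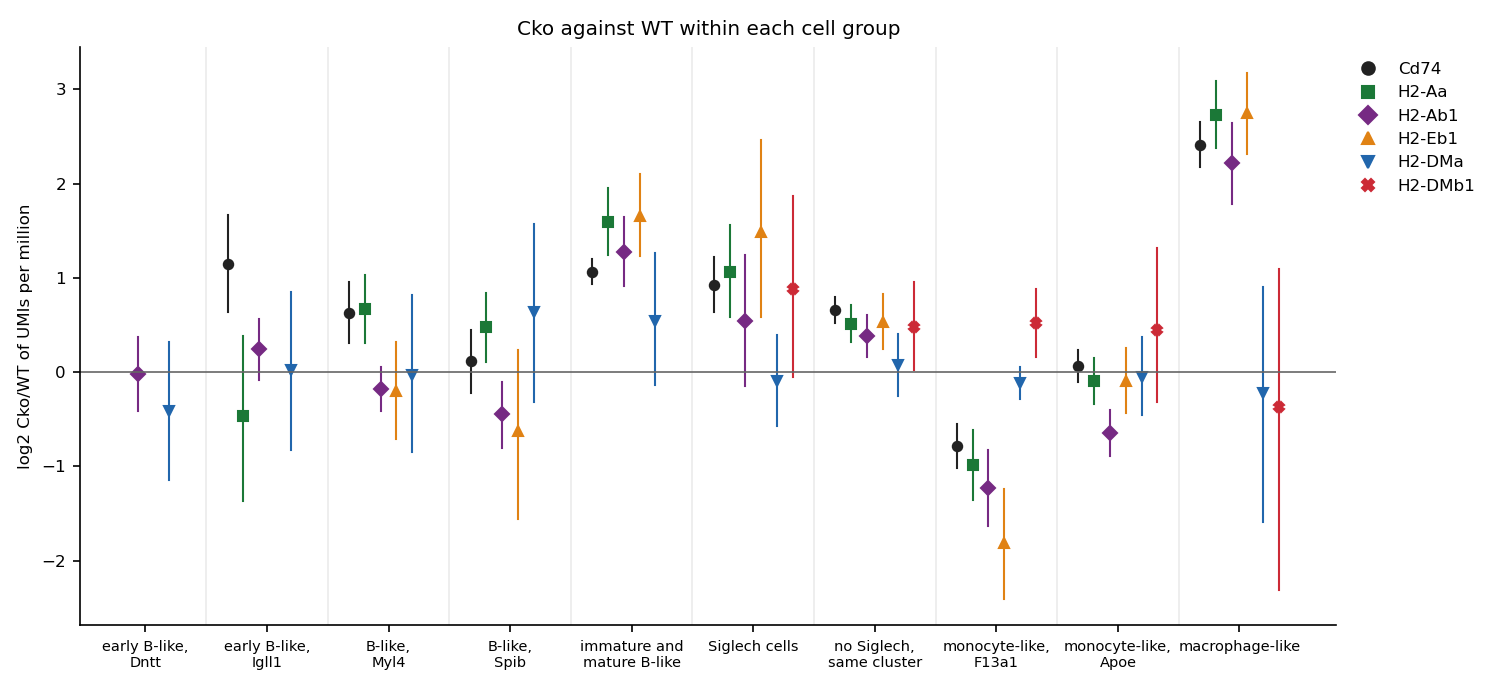
Log2 ratio of Cko to WT for each of the 6 genes in 10 cell groups, with exact conditional 95% intervals from the counts, for genes with at least 30 UMIs over both libraries. The 4 genes *Cd74*, *H2-Aa*, *H2-Ab1* and *H2-Eb1* lay above 0 in immature and mature B-like and macrophage-like cells and below 0 in the monocyte-like F13a1 cluster, while the interval of *H2-DMa* held 0 in each of the groups shown. The immature and mature B-like group is the 24 WT and 39 Cko cells left after the removal above; in the whole cluster the interval of *H2-DMa* was 0.41 to 1.81.

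The H2-DM pair also took most of the UMIs of the 6 genes in some progenitors, but not in all. It took 49.0% in the granulocyte-monocyte progenitor-like cluster led by *Elane*, both libraries pooled. In the stem and progenitor-like cluster led by *Mt2* and *Car1* it took 41.9%, beside *H2-Ab1* at 41.0%. In the granulocyte-monocyte progenitor-like cluster led by *Irf8*, *H2-DMa* was at 135 CPM in WT and 177 in Cko and *H2-DMb1* at 56.1 and 65.5, while *Cd74* was at 11.9 and 28.2. The pair made up 85.9% of the class II UMIs of that cluster and 67.0% of those of the stem and progenitor-like cluster led by *Cd34* and *Flt3*, where *H2-DMa* was at 189.7 and 150.02 CPM. Class II was low but not absent in the latter, with *H2-Ab1* at 46.8 CPM in WT and 23.4 in Cko and *Cd74* at 36.4 and 38.8, above the erythroid-like levels. An unnamed cluster led by *Mt2*, mainly of WT cells, was again of the *H2-Ab1* kind, with *H2-Ab1* at 26.7 and 63.5 CPM and *Cd74* at 6.77 and 8.46.

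Across the 24 sums of a class in a library with at least 30 cells, the members fell into 2 sets. Log2(CPM + 10) of *Cd74*, *H2-Aa* and *H2-Eb1* had Pearson correlations of 0.98 to 0.99 with each other and *H2-Ab1* of 0.93 to 0.95 with these, while *H2-DMa* had 0.73 to 0.80 with the 4 and 0.88 with *H2-DMb1*. Of 5462 genes ranked, the most like the class II sum were *Ifi30* (0.91), a lysosomal thiol reductase of antigen processing, *Trim30a* (0.89), *Arhgap17* (0.88), *Rnase6* (0.88) and *9930111J21Rik2* (0.88). The most like the H2-DM pair were *Ly86* (0.94), *Ctsz* (0.93) and *Pld4* (0.92). The sums share libraries and depth, so these values describe the data only.

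Of 31 other genes of the class II pathway, among them transcription factors, proteases and costimulators, 17 were listed in both libraries. *Ciita* was not listed. Over all cells 8 were past 1.5-fold higher in Cko and 3 past 1.5-fold lower, where 18.4% and 13.3% of all genes were, with a median log2 ratio of 0.28 against -0.03. The protease *Ctss*, which trims Cd74, was at 45.6 CPM in WT and 137 in Cko, the factor *Spi1* at 112 and 290 and *Ifi30* at 63.0 and 102. Lower in Cko were *Rfxap*, a subunit of the X box factor, at 29.2 and 15.4 CPM, the ubiquitin ligase *March8* at 31.3 and 10.1 and the protease *Ctsb* at 227 and 151. Within classes, those past 1.5-fold were 0 of 14 with enough UMIs in early B-like cells, 0 of 7 in plasmacytoid dendritic-like cells, and 1 of 4 in immature and mature B-like cells, which was *H2-DMb2*, where 22.1% of all genes were higher. In monocyte-like cells taken as 1 class *Ctsl* was higher and *Nfyb* lower, of 13, where 5.67% and 8.78% of all genes were. Within the F13a1 cluster *Ctsl* alone of 11 was past 1.5-fold higher and 0 were lower, where 3.33% and 5.08% of all genes were. *Nfyb* was at 79.3 CPM in WT and 63.1 in Cko there. Within the Apoe cluster 0 of 7 were higher and 2 lower, where 12.6% and 9.45% of all genes were. The 2 were *Irf8*, at 343 and 179 CPM, and *Ctsb*, at 775 and 488. In macrophage-like cells 3 of 5 were higher, *Ctss*, *Lgmn* and *Unc93b1*, where 19.8% of all genes were. In the B cells left after the removal above, 1 of 3 was past 1.5-fold higher, where 12.4% of all genes were.

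Class I genes gave a point of comparison. Over all cells *H2-K1*, *H2-D1*, *B2m* and *Tap2* were past 1.5-fold higher in Cko, 4 of 6, where 18.4% of all genes were. In immature and mature B-like cells *H2-K1* was at 742 CPM in WT and 1107 in Cko (log2 0.58, 0.26 to 0.90) and *B2m*, the light chain of class I, at 3237 and 2142 (-0.60, -0.78 to -0.41). In the same cells each of the 4 class II members with enough UMIs had a log2 ratio of 1.28 or more. In the B cells left after the removal above, 1 of 3 class I genes with enough UMIs was past 1.5-fold higher and 0 were lower. Of all genes there, 12.4% and 14.9% were. The median log2 ratio was 0.48 for these class I genes and 1.43 for the 4 class II members. In plasmacytoid dendritic-like cells *H2-D1* was at 694 and 1208 CPM (log2 0.80, 0.56 to 1.04). There 2 of 4 class I genes with enough UMIs were past 1.5-fold higher and 1 lower, where 5.42% and 14.3% of all genes were. *H2-D1* was also higher in Cko in erythroid-like cells, at 96.5 and 334 CPM, and in neutrophil-like cells, at 338 and 815.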

How the data were processed

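Sc-RNA-Seq of BMCs from 1 WT and 1 Cko mouse was analysed. The authors used a Chromium 3′ kit (v2) and Cell Ranger on GRCm38, per the labels, and the version of Cell Ranger is not given in the sources used here. The deposited values are UMI counts per gene and cell, not normalized. Each listed gene reached at least 4 UMIs in some cell, so an unlisted gene was not taken as 0.

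Cells with at least 200 genes were kept. Both libraries were clustered together with Seurat 5.3.0 in R 4.3.3 (2000 variable genes, 30 components, 20 neighbours, resolution 2.0) on genes listed in both, without the class II genes. A cluster was named from its markers if at least 3 counted, at 1.5-fold and in 25% of cells, and clusters of 1 name were merged. Scrublet in scanpy 1.11.5 called 127 WT (2.03%) and 51 Cko (1.39%) cells doublets, at an expected rate of 5%, and these were kept. UMIs were summed per class and library and scaled to CPM, with exact Poisson, binomial and conditional 95% intervals. With 1 library per genotype no test was made. "Past 1.5-fold" is a limit on the ratio among genes with at least 100 UMIs in the class, both libraries summed. A gene high in 1 library can reach these UMIs through that library alone. Sums and intervals were computed in Python 3.11.15 with pandas 2.3.3, scipy 1.17.1 and numpy 2.4.6, figures were drawn with matplotlib 3.10.9, and the ratio step was tested on simulated data. Genes named were the members, the pathway and class I lists, cluster markers and leading genes, and the genes most like the members.

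The members, lists and tests were chosen with earlier results of these data known. The limits of 100 and 30 class II UMIs per 10000, the split by *Siglech*, the removal of B cells by *Cd79a* and immunoglobulin UMIs, and the values for single clusters were added after seeing these values. Alternatives were other clusterings, marker scores per cell, removal of doublets, other filters, other scalings and subtraction of the erythroid-like background.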

Additional observations from a re-analysis of the deposited data

How the results depend on the processing

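With 1 library per genotype each ratio rests on 1 mouse against 1 mouse, no test could be made, and the intervals leave out animal and library variation. No paired analysis was possible because each genotype has 1 library. Some classes were small, with 9 Cko macrophage-like and 37 WT and 42 Cko immature and mature B-like cells. Values below are log2 Cko/WT of the 6 genes summed. Over all alternatives they stayed above 0 for the whole library (7 alternatives, 1.45 to 1.75), immature and mature B-like (16, 1.18 to 2.66), plasmacytoid dendritic-like (17, 0.49 to 1.59) and macrophage-like cells (14, 1.55 to 2.46), and not for early B-like (14, -0.05 to 0.45) or monocyte-like cells (17, -0.46 to 1.40).

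Of the early B-like alternatives, classes from marker scores per cell turned the ratio to -0.046. The monocyte-like ratio turned in each cluster alone, to -0.46 and -0.11. It was 0.95 at resolution 1.0, 0.77 at resolution 3.0, 0.88 with class II genes in the clustering, 0.68 with each library clustered on its own, 1.40 from marker scores, 1.17 with median-of-ratios size factors, 1.13 without the top cell of each library, 1.16 with cells weighted equally and 0.34 between median cells. The plasmacytoid dendritic-like ratio was 0.95 at resolution 3.0, 0.92 with class II genes in the clustering, 1.59 clustered apart, 1.08 from marker scores, 0.85 with size factors, 0.49 with equal weights, 0.80 between median cells, 0.86 without *Cd79a* cells, and 0.52 and 0.78 in cells without and with *Siglech*. The immature and mature B-like ratio was 1.83 at resolution 1.0, 2.66 clustered apart, 1.57 with size factors, 1.84 between median cells and 1.18 in *Cd79a* cells with under 10% immunoglobulin UMIs. The macrophage-like ratio was 2.18 from marker scores, 2.12 without hemoglobin in the total, 2.02 with size factors, 2.01 without the top cells and 1.55 between median cells, and clustered on its own the Cko library gave no macrophage-like cluster. The whole-library ratio was 1.58 with at least 500 genes per cell, 1.45 without hemoglobin and 1.75 with equal weights. The causes of these shifts were not tested. The share of immature and mature B-like genes past 1.5-fold higher was 35.8% and lower 8.67% with at least 300 UMIs, and lower 26.6% with at least 10. No dendritic-like cluster formed. By marker scores alone 40 WT and 47 Cko cells were dendritic-like, at 7800 and 12298 CPM. The single clusters, median cells, equal weights, top cells, *Cd79a* and *Siglech* settings were chosen after seeing the data.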
